A study of Homo sapiens with 4 samples.

Results

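Heat shock proteins and chaperonins are the machines that fold newly made proteins, hold unfolded ones in solution and refold or pass on damaged ones. HSP70 binds short stretches of unfolded protein in a cycle of ATP hydrolysis that J proteins start and exchange factors reset. HSP90 finishes the folding of kinases and steroid receptors with the help of co-chaperones. Small heat shock proteins hold aggregating proteins without ATP, and the chaperonins enclose a substrate in a barrel. In heat or other proteotoxic stress, heat shock factor 1 (HSF1) binds heat shock elements in promoters and raises the inducible genes, and neurons are known to raise them less readily than many other cells.

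The set described here was a list of 40 genes given by name, with no measured value in the rule. A gene was measured where the series' table held a probe set (a group of short probes read out as 1 value) whose annotation named that gene alone. That gave 34 of the 40 genes, through 75 of 54613 probe sets. HSPA1A, HSPA1B, HSPA8 and TCP1 were read only by probe sets annotated with several genes, and AHSA1 and HSF2 had no listed probe set, so these 6 genes have no value here. The working name of the set is cytosolic, but HSPA9, HSPD1, HSPE1 and DNAJA3 encode chaperones of the mitochondrial matrix and HSF1 a transcription factor. All 34 genes passed into the tests, since no filter on low signal was applied.

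The cells were SH-SY5Y, an established human neuroblastoma line. In 2 samples TSPAN8, a cell-surface tetraspanin, was silenced with small interfering RNA of the self-delivering Accell type, and 2 samples were transfection controls; all 4 were collected after 72 h and hybridised to 1 array each. The make-up of the control transfection, and the number of cultures behind each group, are not given in the sources used here. The p-values therefore speak of the spread among these samples alone, and that spread may be technical. Values are log2 signals, and a difference is knockdown minus control. A signal depends on its probes as well as on the transcript, so levels are set side by side within a gene only. In whole cultures, fewer cells of a type and less RNA per cell cannot be told apart.

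The silenced gene checked the labels. TSPAN8 read 6.25 and 6.35 after knockdown and 7.52 and 7.62 in control cells, a difference of -1.27 ± 0.062 (SE; limma, adjusted p = 0.0026). It was the only probe set of the array past the threshold of 0.05 (0.00183% of 54613). Of 11 measured noradrenergic neuroblast markers, 10 had a signal above the median probe set, the exception being TH, at 5.96 ± 0.053 (SD, n = 2) in control cells.

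No heat shock or chaperonin gene changed past the threshold after TSPAN8 knockdown. Of the 34 measured genes, 18 read above control and 16 below, with a median difference of 0.0045, beside a median of -0.0094 over 19775 genes. The smallest adjusted p was 0.60 (limma). At an unadjusted p under 0.05 there were 3 of 34 (8.82%), beside 7.96% of all genes. CHORDC1 and DNAJA1 were above control (2.39% of all genes were called in that direction) and DNAJB6 below (5.57%). The arrays of the 2 groups did not overlap for 13 genes (38.2%), beside 38.5% of all genes. Of the 13, 7 were higher and 6 lower, beside 14.3% of all genes without overlap in the higher and 24.2% in the lower direction. The shares at an unadjusted p under 0.05 and without overlap were both close to their background. A difference of at least 0.2 in size was reached by 2 genes, CHORDC1 and HSPA2, beside 2.33% of all genes.

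**Figure D1:**
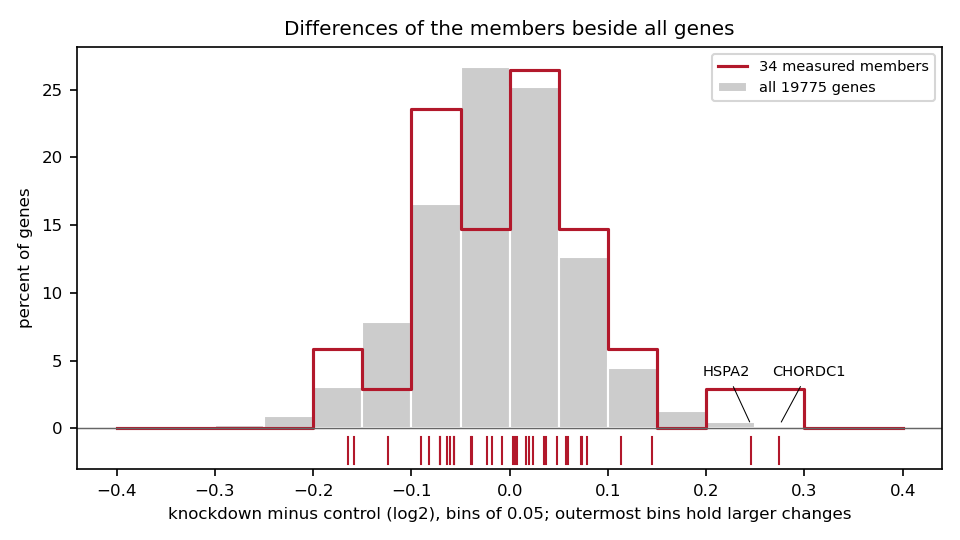
Share of genes (percent, vertical axis) in bins of the knockdown minus control difference (log2, horizontal axis), with grey bars for all 19775 genes and a red outline for the 34 measured heat shock and chaperonin genes. Each red tick under the axis is 1 of these genes; they spread from -0.16 (HSPA6) to 0.27 (CHORDC1) around a median of 0.0045.

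CHORDC1 had the largest difference. It encodes a zinc-binding co-chaperone of HSP90. Its signal was 10.43 and 10.23 on knockdown replicates 1 and 2 and 10.05 and 10.07 on control replicates 1 and 2. Both knockdown arrays lay above both control arrays. The difference was 0.27 ± 0.071 (SE; 95% confidence interval 0.11 to 0.44; limma, adjusted p = 0.60), or 1.21-fold. Its dim second probe set also read higher, by 0.065 ± 0.052 (SE). Without knockdown replicate 2 the difference was 0.37, and without knockdown replicate 1 it was 0.18. In those fits the lone knockdown array is assumed to vary like the controls, so their p-values do not measure the spread after knockdown.

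The J proteins deliver substrates to HSP70 and trigger its ATPase. All 7 were measured, 3 above and 4 below control, with a median of -0.057. DNAJA1, a cytosolic partner of HSP70, read 12.14 and 12.01 after knockdown and 11.92 and 11.94 in control cells. The groups did not overlap, and the difference was 0.14 ± 0.061 (SE; limma, adjusted p = 0.63). At its other probe set the groups overlapped, with a difference of 0.023 ± 0.061 (SE).

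DNAJB6, which suppresses the aggregation of polyglutamine proteins, went the other way. Its values were 9.20 and 9.06 after knockdown and 9.25 and 9.32 in control cells, a difference of -0.16 ± 0.064 (SE; limma, adjusted p = 0.63). Knockdown replicate 2 was the lowest of the 4. A pair of other probe sets that carry DNAJB6 together with TMEM135, and cannot be assigned to either gene, differed by 0.018 and -0.032. DNAJB1, the stress-inducible partner of HSP70, read 9.31 and 9.19 after knockdown and 9.20 and 9.43 in control cells, with overlap and with control replicate 2 the highest of the 4 arrays (-0.064 ± 0.084, SE). DNAJC7 binds both HSP70 and HSP90 through tetratricopeptide repeats. Its 3 probe sets disagreed, at -0.057, 0.092 and -0.16, and the last of these, which read 6.46 and 6.53 after knockdown and 6.65 and 6.65 in control cells, had an unadjusted p under 0.05 (limma, adjusted p = 0.60). DNAJA2 (0.024), DNAJB4 (0.074) and the mitochondrial DNAJA3 (-0.090) lay within those bounds.

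Among the HSP70 genes themselves, HSPA2 and HSPA6 had the widest spread. HSPA2, known best from the testis, read 7.54 and 7.31 after knockdown and 7.38 and 6.99 in control cells. The groups overlapped, since control replicate 1 exceeded knockdown replicate 2, and the difference of 0.25 ± 0.12 (SE) did not pass (limma, adjusted p = 0.67). Dropping control replicate 1 raised the HSPA2 difference to 0.44, and dropping control replicate 2 lowered it to 0.053. Dropping knockdown replicate 1 lowered it to 0.13, and dropping knockdown replicate 2 raised it to 0.36. HSPA6, a strictly heat-inducible HSP70 of human cells, read 6.48 and 6.54 after knockdown and 6.48 and 6.87 in control cells, close to the median probe set signal of 6.59. Its -0.16 ± 0.11 (SE) came from control replicate 2 alone, without which the difference was 0.029. The other probe set of HSPA6 had the same high array, at 6.92 against 6.10, 6.23 and 6.33 on control replicate 1 and knockdown replicates 1 and 2. HSPA9, the mitochondrial HSP70, differed by -0.071, and HSPA14, which works at the ribosome, by 0.073.

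The HSP110 proteins HSPA4, HSPA4L and HSPH1 reset HSP70 by exchanging its nucleotide. HSPA4 read 11.05 and 10.89 after knockdown and 10.85 and 10.87 in control cells, without overlap (0.11 ± 0.065, SE). Of its other 3 probe sets 2 were above control, at 0.11 and 0.090. The remaining one was below, with 8.81 and 8.79 after knockdown and 8.89 and 8.95 in control cells (-0.12 ± 0.053, SE; limma, adjusted p = 0.64). HSPH1 read 11.76 and 11.62 after knockdown and 11.78 and 11.68 in control cells, with overlap (-0.038), while another of its 3 probe sets read 0.22 ± 0.11 (SE), with knockdown replicate 1 at 10.89 and the other 3 arrays between 10.48 and 10.53. HSPA4L was at 0.048, and its knockdown arrays, at 8.53 and 8.23, lay on either side of the controls.

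The small heat shock proteins and BAG3, the co-chaperone that links them to HSP70 and to autophagy, did not share a direction. HSPB1, also called HSP27, read 10.23 and 10.20 after knockdown and 10.45 and 10.23 in control cells. It was lower without overlap (-0.12 ± 0.074, SE; limma, adjusted p = 0.72), but knockdown replicate 1 and control replicate 2 were nearly equal. BAG3 read 8.74 and 8.53 after knockdown and 8.52 and 8.68 in control cells, a difference of 0.035 ± 0.083 (SE) between overlapping groups. HSPB8, the partner of BAG3, was at 0.079, and CRYAB, alpha-B-crystallin, at 0.016. CRYAB was the only 1 of the 34 genes whose signal lay below the median probe set, and summarised arrays compress changes at such signals.

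The 2 cytosolic HSP90 genes are HSP90AA1, the more inducible, and HSP90AB1, the more constant. HSP90AA1 read 13.65 and 13.59 after knockdown and 13.54 and 13.58 in control cells, higher without overlap (0.059 ± 0.054, SE; limma, adjusted p = 0.84). HSP90AB1 read 12.19 and 12.09 after knockdown and 12.23 and 12.20 in control cells, lower without overlap (-0.082 ± 0.057, SE). Each of them had 1 probe set with a larger difference than the rest, 0.25 ± 0.098 (SE; limma, adjusted p = 0.63) for HSP90AA1 and 0.24 ± 0.085 (SE; limma, adjusted p = 0.61) for HSP90AB1. On both of these, knockdown replicate 1 stood above the other 3 arrays, at 12.95 against 12.52 to 12.62 for HSP90AA1 and at 12.32 against 11.93 to 12.05 for HSP90AB1. The direction of HSP90AB1 thus depended on the probe set, with 2 of 3 below control.

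Of the co-chaperones beside CHORDC1, STIP1, the adaptor that hands substrates from HSP70 to HSP90, was at -0.057 and FKBP4, an immunophilin of steroid receptor complexes, at -0.071. PTGES3 (p23), which stabilises closed HSP90, was at 0.0079, and ST13, an HSP70-interacting protein, at 0.0036. All 4 probe sets of FKBP4 were below control, by -0.017 to -0.078. Heat shock factor 1 itself read 8.43 and 8.40 after knockdown and 8.43 and 8.53 in control cells (-0.061 ± 0.057, SE), with overlap.

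**Figure D2:**
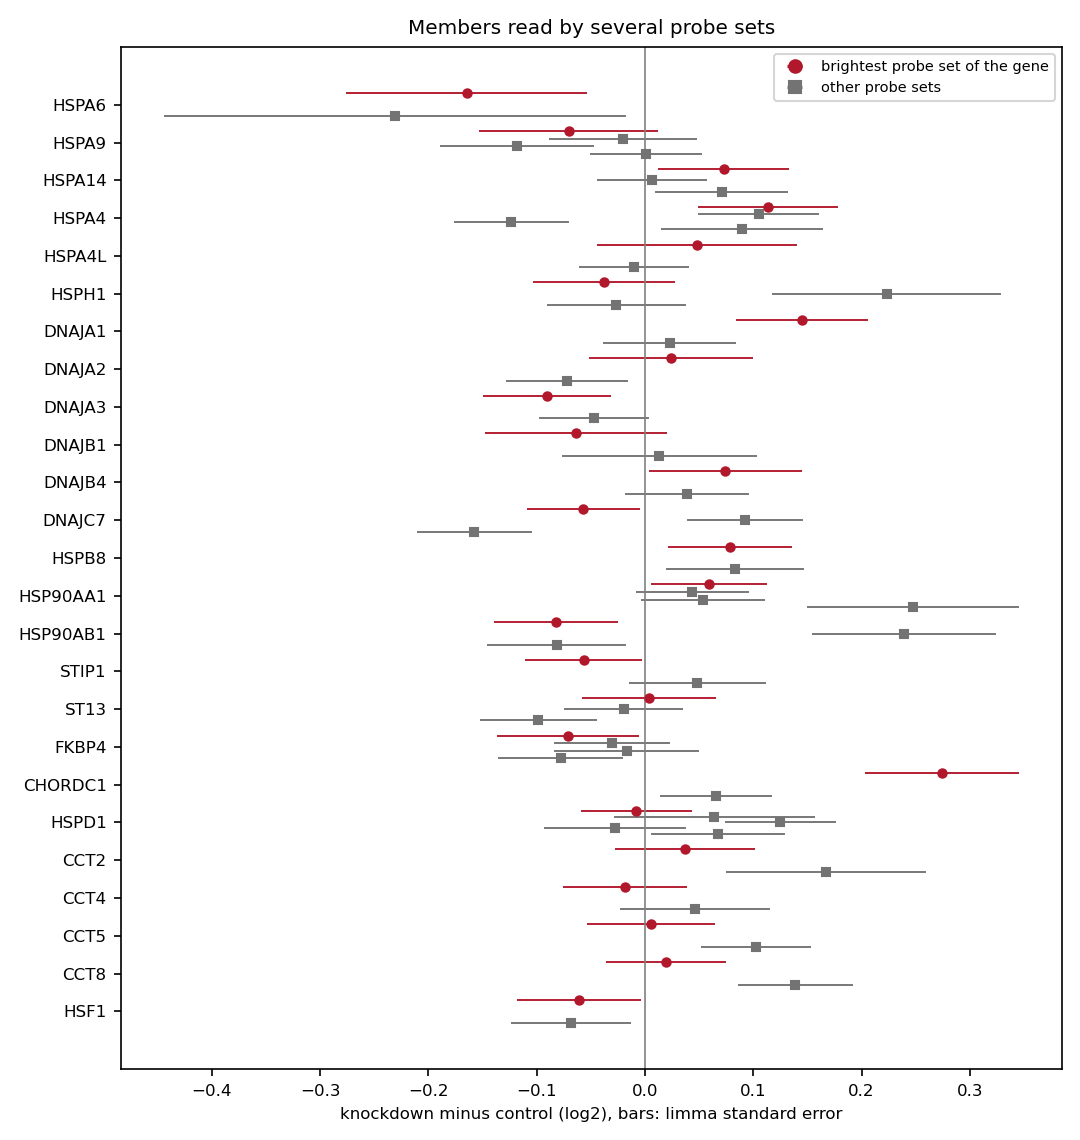
Knockdown minus control difference (log2, horizontal axis) of every probe set for the 25 genes read by more than 1 probe set; red circles are the brightest probe set of each gene, grey squares the others, and bars the limma standard error. The probe sets of 12 genes fall on both sides of 0, HSP90AB1 and HSPA4 among them.

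Disagreement between probe sets was common. Of 25 genes with several probe sets, 12 had them on both sides of 0. Of all 75 probe sets, 9 (12%) had an unadjusted p under 0.05, 6 higher and 3 lower, beside 7.83% of the 54613. These belonged to 9 different genes. Besides those named above they were a probe set of CCT8 (0.14 ± 0.054, SE) at the dim end of the array and a secondary one of HSPD1 (0.13 ± 0.051, SE).

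The brightest probe sets of the chaperonin genes differed little between the groups. TRiC is the barrel of 8 different subunits that folds actin and tubulin, and 6 of the 7 listed subunits were measured. They differed by -0.039 (CCT3) to 0.037 (CCT2), with a median of -0.0065, and the groups overlapped for all 6. CCT6A, a subunit outside the list and counted among the other chaperone genes below, differed by -0.055, with overlap. Secondary probe sets differed by more, at 0.17 for CCT2, with overlap, and at 0.10 for CCT5, without. The 95% confidence intervals of the brightest probe sets of the 6 ran at the widest from -0.18 for CCT3 to 0.19 for CCT2. CCT2 read 12.94 and 12.79 after knockdown and 12.80 and 12.86 in control cells, and CCT5 12.39 and 12.30 against 12.30 and 12.38. For each of the 6 subunits knockdown replicate 1 was the highest of the 4 arrays and control replicate 2 exceeded control replicate 1.

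HSPD1 (HSP60) and HSPE1 (HSP10) form the barrel and lid of the mitochondrial chaperonin and lie head to head on chromosome 2. HSPD1 read 13.33 and 13.29 after knockdown and 13.32 and 13.32 in control cells, a difference of -0.0081 ± 0.051 (SE). HSPE1 read 11.69 and 11.66 against 11.62 and 11.62, higher without overlap by 0.057 ± 0.051 (SE; limma, adjusted p = 0.83). The 4 genes of mitochondrial chaperones had a median of -0.039 and the other 30 a median of 0.0067.

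**Figure D3:**
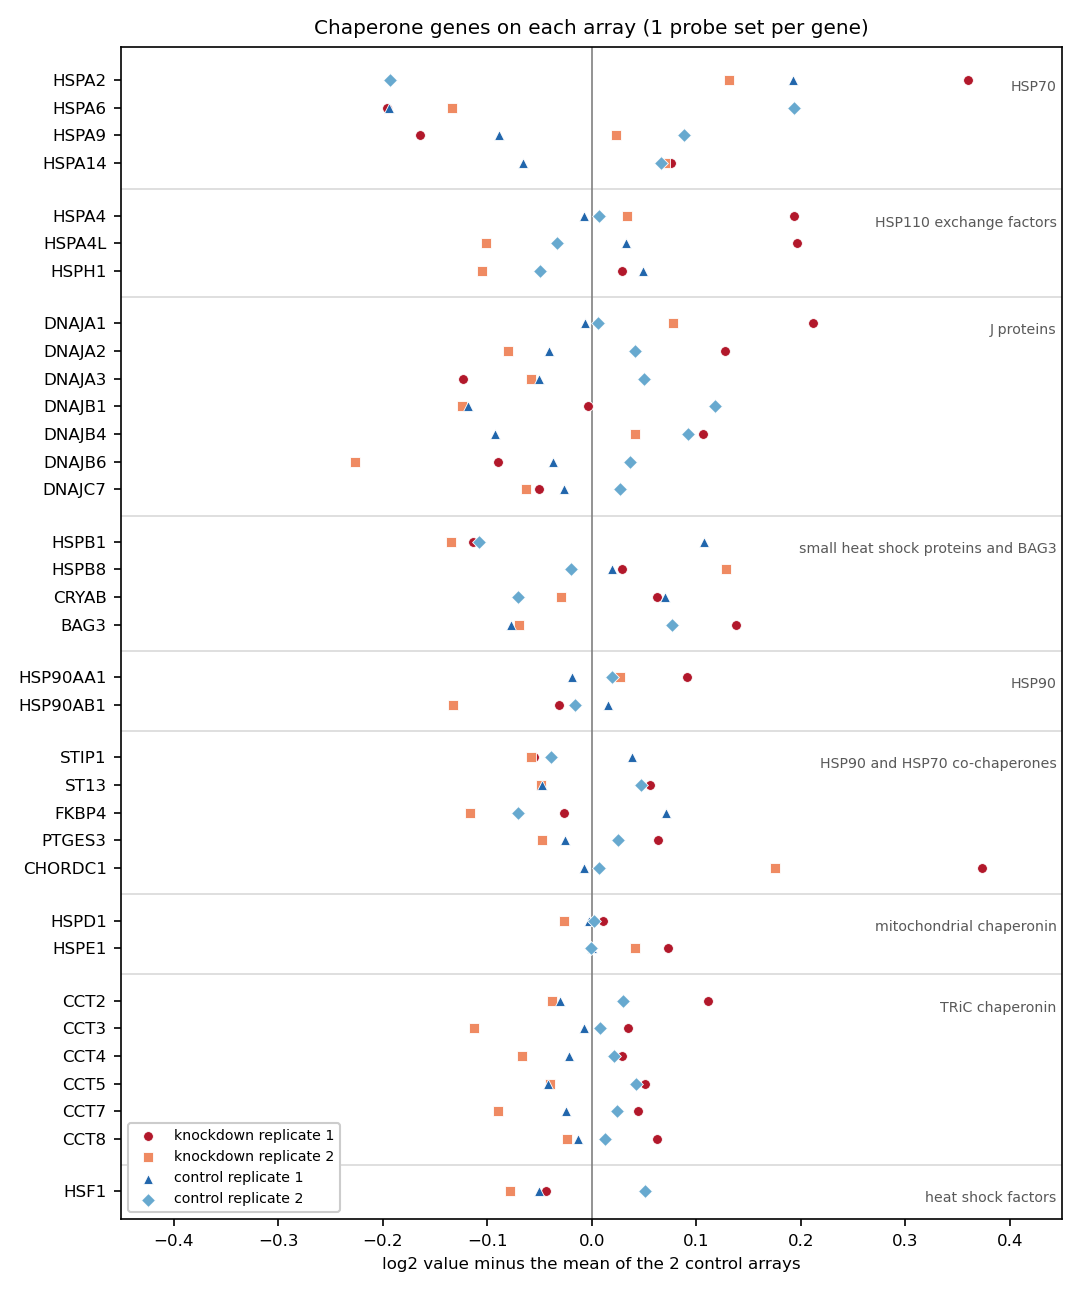
Each row is 1 gene, grouped by role; points give its log2 value on each array minus the mean of the 2 control arrays (horizontal axis), red and orange for knockdown and blue for control. CHORDC1 lies 0.37 and 0.18 (replicates 1 and 2) above the control mean on the knockdown arrays, whereas each of the 6 TRiC genes has knockdown replicate 1 to the right of 0 and knockdown replicate 2 to the left.

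The 2 knockdown arrays differed from each other more than the groups did, with a median gap in size of 0.100 against a median difference in size of 0.058. Over all genes the same medians were 0.063 and 0.048, and a gap between single arrays is wider than a difference of means even with no effect. Knockdown replicate 1 exceeded replicate 2 for 30 of the 34 genes (88.2%), beside 50.2% of all genes, with a median gap of 0.094. These were 28 of the 30 genes outside the mitochondrial chaperones and 2 of those 4. Knockdown replicate 1 was the highest of the 4 arrays for 20 of the 34 (58.8%), beside 5144 of all 19775 genes. Among 54 other chaperone genes, described below, it exceeded knockdown replicate 2 for 61.1%, with a median gap of 0.027. It was the highest array for 37.0% of them. Control replicate 1 exceeded control replicate 2 for 10 of the 34, with a median gap of -0.041. Relative to the control mean, the median gene stood at 0.048 on knockdown replicate 1 and at -0.053 on knockdown replicate 2, and at -0.020 and 0.020 on control replicates 1 and 2. The difference between groups therefore had opposite signs within the replicate numbers, at 0.071 within number 1 and -0.066 within number 2, each from arrays that no label pairs. For 5 of the 34 genes (14.7%) the difference between groups was larger than the gap within either group, beside 26.5% of all genes.

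Genes of endoplasmic reticulum chaperones went the other way between the knockdown arrays. Of 16 measured, 15 were lower on knockdown replicate 1 than on replicate 2 (median gap -0.48), and all 16 were lower on control replicate 1 than on control replicate 2 (-0.38). Their median difference was -0.18, with 15 of 16 below control, beside 55.6% of all genes. None passed the threshold, and 0 of 16 had an unadjusted p under 0.05 (limma), beside 7.96% of all genes. HSPA5 (BiP), the HSP70 of that compartment, read 12.54 and 13.11 after knockdown and 12.92 and 13.23 in control cells (-0.25 ± 0.17, SE). By contrast 88.2% of the 34 heat shock and chaperonin genes were higher on knockdown replicate 1, but 2 of the 4 mitochondrial ones. In the control pair the lists leaned the same way, with control replicate 1 higher for 10 of the 34 (median gap -0.041). The difference between the lists in the knockdown pair was not tested.

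**Figure D4:**
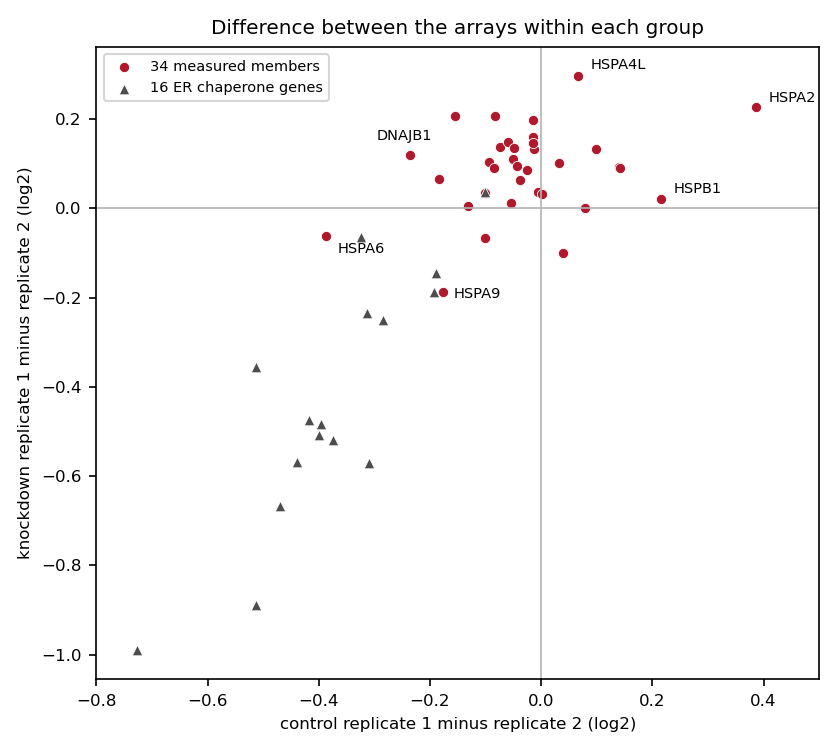
Each point is 1 gene, placed by the gap between the control arrays (horizontal axis, log2) and between the knockdown arrays (vertical axis, log2), replicate 1 minus replicate 2. Of the 34 heat shock and chaperonin genes (red circles) 30 lie above 0 on the vertical axis, and 15 of the 16 endoplasmic reticulum chaperone genes (grey triangles) lie below it.

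Markers of mesenchymal cells moved with the same array. The mean level of the 20 measured markers was 8.98 and 8.73 after knockdown (replicates 1 and 2) and 8.70 and 8.67 in control cells, and 18 of 20 were higher on knockdown replicate 1 than on replicate 2. Relative to control, 16 of 20 were higher, beside 8787 of all 19775 genes, with a median of 0.15. The 4 below control were CD44 (-0.044), FN1 (-0.030), TAGLN (-0.026) and PDGFRB (-0.0059). Of the 20 markers, 3 had a mean signal below the median probe set, array values having no zero. CCN1 (0.29 ± 0.070, SE), COL3A1 (0.44 ± 0.12, SE) and SPARC (0.26 ± 0.084, SE) had the smallest p. Their part in the chaperone values was not tested. The neuroblast markers went the other way, with 10 of 11 below control, beside 55.6% of all genes, and a median of -0.059. CHGA (-0.29 ± 0.063, SE), DBH (-0.35 ± 0.10, SE) and CHGB (-0.20 ± 0.068, SE) had the smallest p, none past the threshold. TH was above control, by 0.12 without overlap.

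Other chaperone genes, a wider list of J proteins, BAG proteins, prefoldins and HSP90 partners, had 54 of 58 measured. Of these 21 were above and 33 below control, with a median of -0.018, and none passed the threshold. At an unadjusted p under 0.05 there were 0 higher and 4 lower, beside 2.39% of all genes higher and 5.57% lower. CDC37, the co-chaperone that brings kinases to HSP90, read 8.81 and 8.78 after knockdown and 8.97 and 8.96 in control cells (-0.17 ± 0.051, SE; limma, adjusted p = 0.60). TRAP1, the mitochondrial HSP90, was at -0.16 and BAG4 at -0.14, each without overlap. The fourth was DNAJC6, an auxilin of clathrin uncoating, at -0.12, named after its value was seen.

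The promoters of these genes were searched for the heat shock element. The choice of the set by name did not use the element, but a list of heat shock genes is not independent of it. The form searched was GAANNTTCNNGAA or its reverse complement TTCNNGAANNTTC, that is 3 alternating units, on both strands and with overlapping matches counted. RefSeq windows from 250 bases before to 50 after an annotated start (GRCh38.p14) existed for 35 of the 40 genes. The element was found in 8 of these 35 (22.9%), beside 0.608% of 27305 genes; HSPA8, not measured here, was among the 8. Windows of several starts were counted once per gene. A match describes letters only, and no match says nothing about the factor. The stretches below are those of the 7 measured genes with a match. CHORDC1, DNAJA1 and DNAJB6, the 3 genes at an unadjusted p under 0.05, are among them. Such genes were 8.82% of the set, close to the 7.96% of all genes, and a link between the element and the differences was not tested. Matches are in capitals and each stretch reads 5′ to 3′ along the strand of its gene.
CHORDC1, chr11:90223062-90223134, minus strand: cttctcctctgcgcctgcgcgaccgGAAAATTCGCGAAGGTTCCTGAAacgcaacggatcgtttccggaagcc
DNAJA1, chr9:33025251-33025288, plus strand: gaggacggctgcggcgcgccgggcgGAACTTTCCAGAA
DNAJB6, chr7:157336848-157336910, plus strand: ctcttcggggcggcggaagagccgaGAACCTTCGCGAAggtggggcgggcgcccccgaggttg
HSPA6, chr1:161524441-161524503, plus strand: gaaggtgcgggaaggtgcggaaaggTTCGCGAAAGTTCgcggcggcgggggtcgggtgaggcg
HSP90AA1, chr14:102087095-102087157, minus strand: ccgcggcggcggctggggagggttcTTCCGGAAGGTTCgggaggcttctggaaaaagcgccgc
HSP90AB1, chr6:44247753-44247868, plus strand: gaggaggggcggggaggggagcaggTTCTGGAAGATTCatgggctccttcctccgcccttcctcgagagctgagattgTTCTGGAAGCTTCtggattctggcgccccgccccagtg
HSPD1, chr2:197500043-197500090, minus strand: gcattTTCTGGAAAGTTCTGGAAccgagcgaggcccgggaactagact

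CHORDC1 held 3 overlapping matches, the first beginning 60 bases before its start, and that of DNAJA1 began 3 bases after the start. The matches of HSPD1 overlapped each other, lay in 1 of its 2 windows and ended 294 bases from the start of HSPE1, outside the HSPE1 window, which held none. The 7 measured genes with a match did not share a direction. Of them 3 were above and 4 below control (HSPD1 by less than its error), from -0.16 (HSPA6) to 0.27 (CHORDC1), with a median of -0.0081. The 22 measured genes with a window but no match ran from -0.12 to 0.25, with a median of 0.0067. DNAJB1, BAG3, HSPB1 and HSPH1, all known to be heat-inducible, held no match to this strict form in these windows. Nor did HSPA1A and HSPA1B, which were not measured here.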

How the data were processed

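Expression in 4 samples was measured on 3'-labelled oligonucleotide arrays, 1 per sample. The deposited values are log2 signals per probe set; per the submitters' processing notes RMA and R 3.0.1 were used, with no settings listed. Array medians lay between 6.58 and 6.61. Of 54675 probe sets, 62 controls were left out. Genes were named through the platform annotation, only where a probe set had 1 symbol (41091 probe sets; 1801 had several, 11721 were unlisted), and the brightest probe set on average stands for each of 19775 genes. The groups were compared in R 4.3.3 with lmFit and eBayes of limma 3.58.1 at their defaults, without covariates, two-sided, with Benjamini-Hochberg adjustment over 54613 probe sets. The number of arrays limits the precision, and scanner files were not used here, so background was not assessed probe by probe and no batch was examined. The fit was tested on simulated data.

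The genes and lists were chosen with earlier results of these data known. Values on every array are given, by rule, for genes at an unadjusted p under 0.05 or a difference of at least 0.2, genes whose probe sets disagree with 1 of them at p under 0.05, the stress-inducible core, HSPD1 and HSPE1; of other lists up to 3 genes with the smallest p are named. Array values of HSF1, HSPA4L, CCT2, CCT5 and HSPA5 were added after they were seen, and those of HSPA6 and CDC37 also stand outside the rule. The mesenchymal markers below control, and CCT6A, were named after their values were seen. Protein sequences were not used here. Alternatives were a signal filter, centring on the median, quantile normalization again, a trend in the robust variance, the replicate number as a block, other probe sets or summaries per gene, and leaving out each array. Figures were drawn with Python 3.11.15 and matplotlib 3.10.9.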

Additional observations from a re-analysis of the deposited data

How the results depend on the processing

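TSPAN8 kept its direction in every alternative run and its call in all but the replicate block, where the difference was -1.27 (adjusted p = 0.16). That fit, which has fewer residual degrees of freedom, called 0 probe sets. Samples of the same number had deviations that correlated at 0.051, from 2 pairs, and no label pairs them. For the leave-one-out fits the share of all genes at an unadjusted p under 0.05 was not computed. Counts of heat shock and chaperonin genes from those fits thus have no background, and cannot be read as an excess. The count of heat shock and chaperonin genes past the threshold was 0 in every alternative other than leave-one-out. Leaving out each array gave 0 to 1 such genes, 2 to 6 at an unadjusted p under 0.05, 1 to 1026 probe sets past the threshold over the array (1026 without knockdown replicate 2, 25 without knockdown replicate 1) and a median difference from -0.053 (without knockdown replicate 1) to 0.048 (without knockdown replicate 2); the cause was not tested.

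Outside leave-one-out, 12 of 227 values of single genes changed sign, for 9 genes. Median centring gave -0.010 for ST13, -0.0058 for PTGES3 and -0.0083 for CCT5. The second quantile normalization gave 0.0016 for HSPD1. Without probe sets that can bind several transcripts HSPA4 was at -0.12 and HSPD1 at 0.13, which are other probe sets of these genes. The same alternative kept the sign but lowered CHORDC1 from 0.27 to 0.065 and DNAJA1 from 0.14 to 0.023. The mean of all probe sets gave 0.053 for HSPH1, -0.024 for DNAJA2, 0.025 for HSP90AB1, -0.038 for ST13, 0.044 for HSPD1 and 0.014 for CCT4.

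With 1 array left out, 18 of the 34 genes changed sign. CHORDC1, DNAJA1 and DNAJB6 did not, which was fixed beforehand because the arrays of their groups did not overlap. The ranges were -0.36 to 0.029 for HSPA6, -0.16 to 0.023 for HSPA9, -0.10 to 0.20 for HSPA4L, -0.10 to 0.029 for HSPH1, -0.080 to 0.13 for DNAJA2, -0.18 to 0.055 for DNAJB1, -0.018 to 0.17 for DNAJB4, -0.054 to 0.087 for CRYAB, -0.069 to 0.14 for BAG3, -0.049 to 0.056 for ST13, -0.048 to 0.063 for PTGES3, -0.027 to 0.011 for HSPD1, -0.038 to 0.11 for CCT2, -0.11 to 0.035 for CCT3, -0.066 to 0.029 for CCT4, -0.040 to 0.051 for CCT5, -0.090 to 0.044 for CCT7 and -0.024 to 0.062 for CCT8. DNAJA1 ranged from 0.078 to 0.21 and DNAJB6 from -0.23 to -0.090.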

Other observations

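Probe sets annotated with more than 1 symbol cannot be assigned to a gene and stand outside the comparison. Of 13 that carry a symbol of the set, 3 carry HSPA1A and HSPA1B together, the near-identical stress-inducible HSP70 genes. Of these, the 1 at 10.03 on control replicate 2 also carries HSPA1L. The 3 probe sets read highest on control replicate 2, at 11.09, 10.03 and 9.43, against 10.55, 9.58 and 8.94 on control replicate 1. Knockdown replicate 1 lay between the control arrays on all 3, at 10.86, 9.84 and 9.18, and knockdown replicate 2 lay near control replicate 1, at 10.61, 9.53 and 8.90. The gap between the control arrays, -0.45 to -0.54, was larger than the difference between groups, -0.086 to -0.15. HSPA6 and the brightest probe set of DNAJB1 also read highest on control replicate 2. In contrast, HSPB1 and HSPH1 read highest on control replicate 1, and BAG3 and the other probe set of DNAJB1 on knockdown replicate 1. Control replicate 2 was the highest array for 7 of the 34 measured genes, beside 5470 of all 19775 genes.

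The 4 probe sets that carry HSPA8, the constitutive HSP70, together with small nucleolar RNA genes of its introns differed by -0.0013 to 0.057, and the 3 that carry TCP1 by 0.021 to 0.11. A probe set that carries CHORDC1 together with NAALAD2 differed by 0.062. None of these had a difference at an unadjusted p under 0.05 (limma).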
